A study of Mus musculus with 28 samples.

Results

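The contactins are cell adhesion molecules of the immunoglobulin superfamily that are held on the neuronal surface by a lipid anchor, and the contactin-associated proteins (Caspr proteins) are their transmembrane relatives of the neurexin superfamily. The 9 genes described here are the contactin genes Cntn1, Cntn2, Cntn3, Cntn4, Cntn5 and Cntn6 and the contactin-associated protein genes Cntnap1, Cntnap2 and Cntnap4, chosen by gene family among the 23453 genes of the exonic count table and the 20422 genes of the intronic count table. All 9 were listed in both tables and all 9 had at least 10 exonic counts. Another 4 genes of the family, Cntnap3, Cntnap5a, Cntnap5b and Cntnap5c, are not members and are given for comparison only.

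The tables hold single-cell RNA-seq of 28 mouse cells from the cortex. By their labels, 8 were astrocytes and 12 were neurons of genotype C57/BL6 from primary culture, harvested by pipette, and 8 were interneurons of genotype C57/BL6/N, each drawn into a patch clamp pipette from an acute slice. The slices were 300 µm thick and included the prefrontal cortex. The protocol text for the cultured cells describes fixed brain sections of a male mouse of 3 months, which is not a description of a culture, and no label names an animal or culture for any cell. No treatment or gene alteration is named for any group. Libraries of the cultured cells were made with a TruSeq Nano DNA kit from PCR-amplified cDNA, whereas those of the interneurons were made with a TruSeq Stranded kit and run on another sequencer, so library type and cell source cannot be told apart.

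Columns are headed by codes that do not occur in any label, and 0 of 28 columns were assigned to a label. Values are given per column and over 3 blocks of codes: the 8 columns BRP564 and BRP566 to BRP572 (the BRP564 block), the 12 other BRP columns (the BRP528 block, after its lowest code) and the 8 F columns (the F block). The block sizes equal the 8, 12 and 8 cells of the labels, and the blocks have been presumed to be astrocytes, neurons and interneurons, but the BRP codes were divided with block size and marker levels in view and no label ties a block to a cell type. No test between blocks was therefore made, and differences between them are descriptions.

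Exonic counts per column were 12969692 to 19798892 in the BRP564 block, 17483754 to 26770944 in the BRP528 block and 838343 to 14831505 in the F block. The F columns listed 2338 to 7218 genes with an exonic count, against 9869 to 12815 in the BRP columns. Levels are exonic counts per 1000000 exonic counts of the column (CPM), and a column without a count has a floor of 3 counts, which lay between 0.112 and 0.172 CPM in the BRP528 block, between 0.152 and 0.231 CPM in the BRP564 block and between 0.202 and 3.58 CPM in the F block. Intervals and floors cover counting error only, because the libraries were amplified and carry no molecular identifiers. Columns F11 and F12 stood apart from the rest: their log2(CPM + 1) values correlated at r = 0.956 in the exonic and 0.967 in the intronic table (description over 11732 genes), where the highest value for any other F pair was 0.409 and 0.449. Block medians that moved by over 1.5 times when 1 column was left out are given below with their range, F12 among the columns left out.

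Marker genes were summed to describe the blocks. The 9 astrocyte markers together reached 2674 to 7155 CPM in the BRP564 block, 208 to 2463 CPM in the BRP528 block and 1.19 to 4363 CPM in the F block, where Aldh1l1 and S100b were at 0. Slc1a2 did not follow the sum over the BRP blocks. Its median was 192 CPM in the BRP564 block and 804 CPM in the BRP528 block, and it made up 4350 CPM of the highest F value. Gfap, Aqp4 and Gja1 had medians of 153, 1131 and 224 CPM in the BRP564 block and at most 0.981 CPM in the other blocks. The 8 pan-neuronal markers reached 299 to 801 CPM, 4942 to 10024 CPM and 2116 to 17849 CPM in the same order. The 8 markers of GABAergic neurons reached 1.62 to 190 CPM, 0.538 to 3110 CPM and 565 to 11886 CPM, with the highest BRP value in BRP528. Some columns also carried markers of other cells, such as a summed oligodendrocyte level of 1436 CPM in F11 and a summed microglial level of up to 2093 CPM in the F block. The 3 markers of oligodendrocyte precursors reached 56.3 to 298 CPM in the BRP564 block, with a median of 138 CPM. Their medians were 3.97 CPM in the BRP528 block and 0.109 CPM in the F block. Their highest value, 445 CPM, lay in BRP529.

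In myelinated axons, Cntn1 and the Cntnap1 protein form the axonal side of the paranodal junction, where they face glial neurofascin (Nfasc), and Cntn2 and the Cntnap2 protein gather Kv1 potassium channels (Kcna1, Kcna2) at the neighbouring juxtaparanode. Cntn3, Cntn4, Cntn5 and Cntn6 are better known for axon guidance and synapse formation. Among their binding partners are the receptor phosphatase Ptprg, amyloid precursor family proteins and L1 family proteins such as Chl1. The Cntnap4 protein is known from synapses of interneurons. Several of these genes, Cntnap2 above all, are among the longest in the genome.

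Positions below are from GENCODE M21 on GRCm38 (mm10), and all 9 genes are annotated as protein-coding. Cntn1 lies at chr15:92051165-92341967 on the plus strand, Cntn2 at chr1:132509427-132543256 on the minus strand, and Cntn3 at chr6:102162655-102573101 on the minus strand. Cntn4 lies at chr6:105677660-106699310 and Cntn6 at chr6:104492790-104863406, both on the plus strand, so that Cntn3, Cntn6 and Cntn4 follow each other on chromosome 6. Cntn5 lies at chr9:9660891-10904775 on the minus strand. Cntnap1 lies at chr11:101170523-101190724, Cntnap2 at chr6:45059357-47304213 and Cntnap4 at chr8:112570043-112882717, all on the plus strand. Non-exonic length within the gene ranged from 14.3 kb in Cntnap1 and 24.5 kb in Cntn2 to 1013 kb in Cntn4, 1239 kb in Cntn5 and 2235 kb in Cntnap2. Cntnap1 overlaps Ccr10 and Plekhh3 on the opposite strand, and the strand setting of the counting is not given in the sources used here, so counts in the overlap could belong to either gene. Another 28 annotated genes, none protein-coding, lie within or across Cntnap2, and 7 such genes overlap Cntn5.

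Cntn1, Cntn3 and Cntn5 are shown by sequence because each was the leading member of an F column (described with the shares per column). The 250 bases before a start of each gene are printed 5′ to 3′ on the strand of the gene, from RefSeq on GRCm38.p6, with every CG pair in capitals. The Cntn1 stretch is chr15:92050915-92051164, plus strand. The Cntn3 stretch is chr6:102464668-102464917, minus strand, which lies inside the gene because GENCODE also annotates a longer transcript. The Cntn5 stretch is chr9:10904776-10905025, minus strand.
Cntn1: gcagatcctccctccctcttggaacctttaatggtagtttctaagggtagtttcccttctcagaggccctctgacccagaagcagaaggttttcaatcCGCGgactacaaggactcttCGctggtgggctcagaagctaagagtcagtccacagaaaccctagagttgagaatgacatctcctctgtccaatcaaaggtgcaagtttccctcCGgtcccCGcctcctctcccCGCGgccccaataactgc
Cntn3: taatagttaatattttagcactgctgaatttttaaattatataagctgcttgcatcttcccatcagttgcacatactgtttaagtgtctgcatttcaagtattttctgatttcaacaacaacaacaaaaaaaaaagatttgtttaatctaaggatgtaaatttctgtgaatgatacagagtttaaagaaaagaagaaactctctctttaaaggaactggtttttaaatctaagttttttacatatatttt
Cntn5: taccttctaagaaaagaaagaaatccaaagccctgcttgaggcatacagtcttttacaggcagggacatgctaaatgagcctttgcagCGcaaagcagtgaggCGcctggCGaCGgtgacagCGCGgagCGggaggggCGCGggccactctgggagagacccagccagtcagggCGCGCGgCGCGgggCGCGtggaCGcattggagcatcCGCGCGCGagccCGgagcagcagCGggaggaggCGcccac
The Cntn1 stretch held 7 CG pairs, the Cntn3 stretch 0 and the Cntn5 stretch 24. Of 32851 RefSeq promoters of this length, 46.3% held at least 7 CG pairs, 7.87% held 0 and 12.0% held at least 24, with a median of 6. RefSeq lists other starts for 2 of these genes, and 2 more Cntn1 stretches held 3 CG pairs each (32.8% and 43.6% G and C) and 1 more Cntn5 stretch held 26 (68.4%). The G and C share of the printed stretches was 53.6% for Cntn1, 26.4% for Cntn3 and 64.8% for Cntn5. CG was the only motif searched, and as it reads the same on both strands the counts hold for either strand. No relation between this composition and the levels below was tested.

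Across the 9 members and 28 columns, 131 of 252 combinations had an exonic count. The members summed to 6117 exonic counts in the BRP564 block, 119502 in the BRP528 block and 84769 in the F block. These sums are not scaled to depth and do not rank the blocks. Exonic totals were 838343 to 14831505 per column in the F block and 17483754 to 26770944 in the BRP528 block, which also has more columns. Between 1 and 4 members (median 2) had at least 5 exonic counts in a column of the BRP564 block, between 4 and 7 (median 5) in the BRP528 block and between 0 and 7 (median 3.5) in the F block. F1, F2 and F6 held 99.9% of the F block's exonic counts of members, and F7, F12 and F16 held no member at 5 counts. Depth differed between these columns. F1, F2 and F6 had 14831505, 5535888 and 12043599 exonic counts over all genes, and F7, F12 and F16 had 8691638, 2707087 and 838343. The numbers of members and combinations with counts were not set beside those of all genes at the same limits. The highest CPM of all 9 members fell in 5 columns, namely BRP528, BRP541, F1, F2 and F6.

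**Figure D1:**
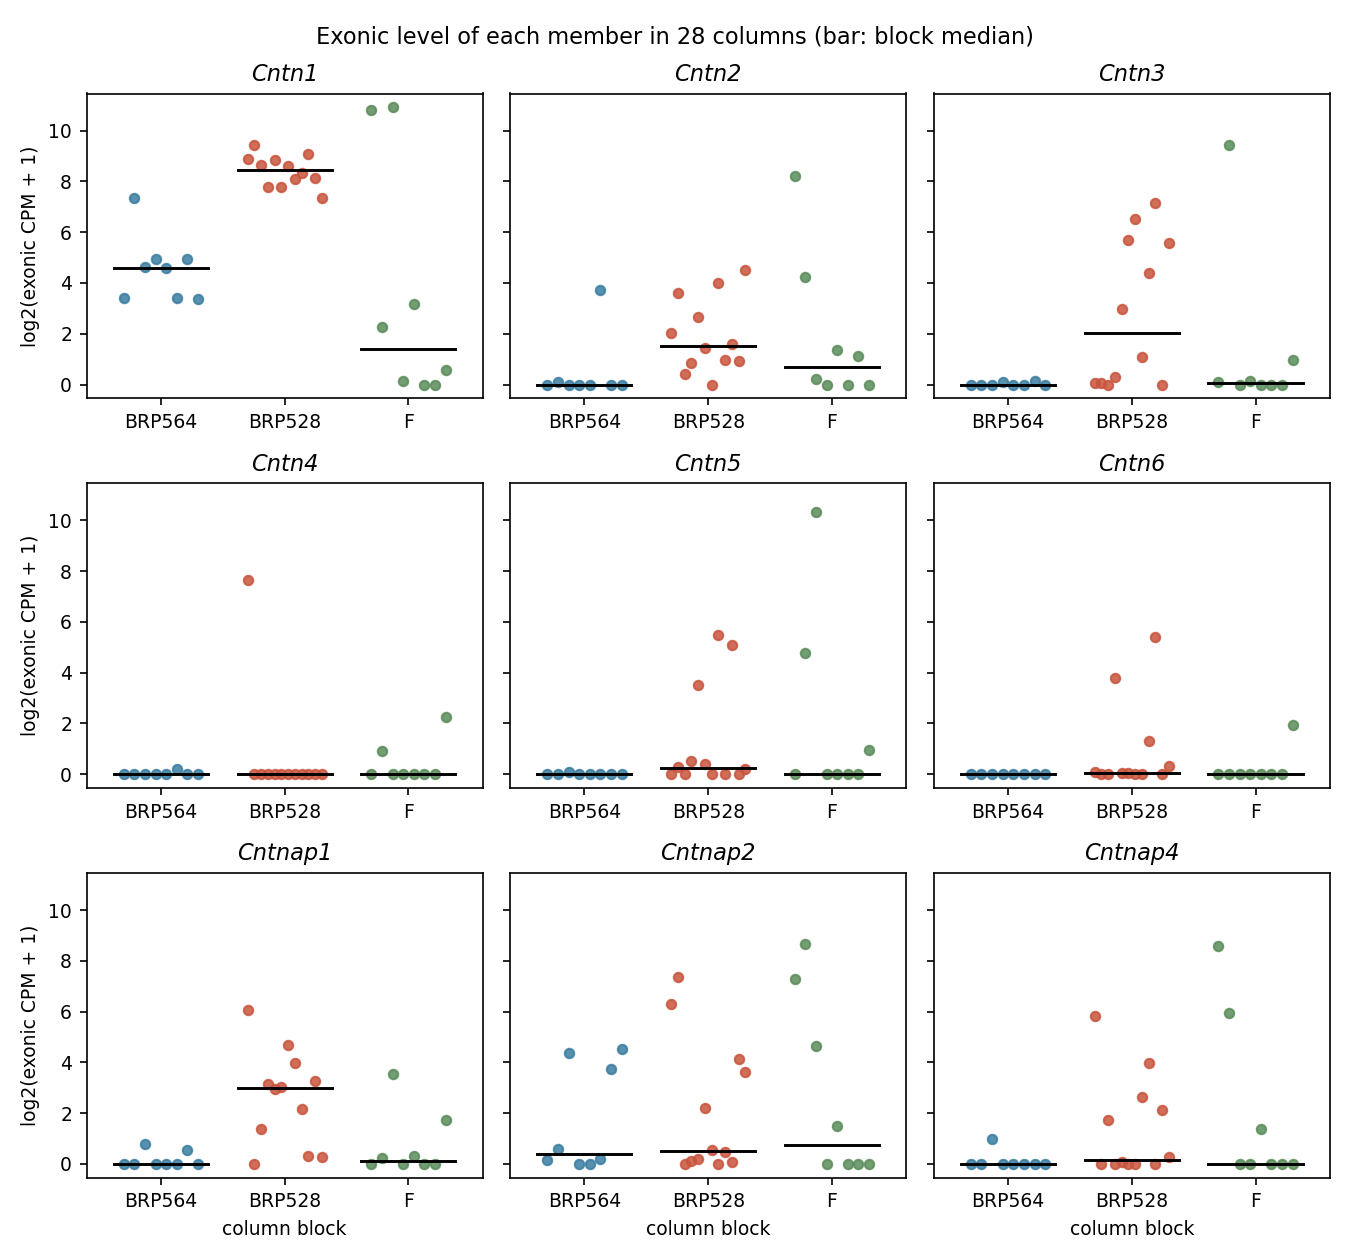
Exonic level of each member on a log2(CPM + 1) scale in the 28 columns, with 1 panel per gene, the column blocks on the x axis, 1 point per column and a black bar at the block median. Cntn1 is the member with a level above 0 in every BRP column, and Cntn4 stands at 199 CPM in BRP528 and at or below 3.78 CPM in every other column.

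Cntn1, the paranodal contactin, had the highest exonic level of the family. Its mean exonic level per kb of exon was 32.0 CPM per kb, higher than 91.2% of the 16896 genes in both tables with an annotated intron and at least 10 counts. In the BRP528 block Cntn1 had counts in 12 of 12 columns, at 163 CPM in the lowest (BRP543), 356 CPM at the median and 689 CPM in the highest (BRP529). In the BRP564 block it had counts in 8 of 8 columns, at 9.29 CPM in the lowest (BRP572), 23.3 CPM at the median and 164 CPM in the highest (BRP566). The 2 blocks touch at a single pair of columns, since BRP566 with 2578 counts lay just above BRP543, and the other 7 columns of the BRP564 block were at or below 29.7 CPM. BRP566 also had the highest summed level of the 4 glutamatergic markers in its block, 144 CPM, where the other 7 columns had at most 0.154 CPM, and its summed pan-neuronal level lay inside the range of its block. Their part in the Cntn1 level was not tested. With other scalings the ranges separated: Cntn1 reached at most 111 CPM in the BRP564 block and at least 117 CPM in the BRP528 block with TMM factors, and at most 128 and at least 160 with DESeq2 size factors.

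In the F block Cntn1 was split. It reached 1935 CPM in F6 and 1785 CPM in F1, above every BRP column, with 23310 and 26479 counts. The remaining F columns held 7.97 CPM (F11, 35 counts), 3.79 CPM (F2), 0.473 CPM (F24), 0.115 CPM (F7) and 0 (F12 and F16), all below the lowest BRP column. The median of 2.13 CPM moved to 0.473 CPM without F1 and to 3.79 CPM without F12, so it describes neither set of columns. The columns at 0, F16 and F12, had floors of 3.58 and 1.11 CPM. F12 had 310 intronic CPM of Cntn1.

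No member had non-overlapping exonic levels between blocks. Among 16403 genes with at least 10 exonic counts, 2.52% had their lowest value in the BRP528 block above the highest value in the BRP564 block, and 0 of 9 members did. In the other direction the share was 3.20% of genes and 0 of 9 members. The BRP528 block lay above the F block for 8.62% of genes and 0 members, and the F block lay above the BRP528 block for 0% of genes and 0 members. With TMM factors or DESeq2 size factors 1 member, Cntn1, came to lie apart (BRP528 block above BRP564 block), beside 2.82% of all genes with TMM factors and 3.05% with DESeq2 size factors. In the intronic table, over 15172 genes with at least 10 intronic counts, the shares apart were 0.0395%, 0.191%, 0.475% and 0.0264% in the same order of comparisons, and 0 of 9 members lay apart in each.

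Cntnap1, the paranodal partner of Cntn1, was found mainly in the BRP528 block. It had counts in 11 of 12 columns there, with a lowest value of 0 in BRP529, a median of 6.99 CPM and a highest value of 66.2 CPM in BRP528. In the BRP564 block only BRP567 (0.741 CPM) and BRP571 (0.459 CPM) had counts, 21 in all. In the F block F6 held 10.7 CPM and F24 2.36 CPM, with 129 and 5 counts, and no other F column was above 0.228 CPM. Of the 13 columns with at least 5 Cntnap1 counts, 12 also had at least 5 Cntn1 counts, F24 being the exception. Cntn1 reached 5 counts in 24 of all 28 columns, so most columns with Cntnap1 would hold it without any link between the genes. The overlap therefore does not tell whether the pair occurred together more often than unlinked genes would. Within the 12 columns of the BRP528 block the levels of the pair did not rise together (Spearman's rho = -0.17 over 12 columns of differing depth), and BRP529 had the highest Cntn1 level of the block and 0 Cntnap1 counts. Its counts are uncertain to the extent of its overlap with other genes.

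Cntn2, the juxtaparanodal contactin (TAG-1), was low in most columns. The BRP528 block had counts in 11 of 12 columns, with a median of 1.86 CPM and highest values of 21.8 CPM (BRP543), 15.1 CPM (BRP539) and 11.1 CPM (BRP529). In the BRP564 block BRP570 held 243 counts (12.3 CPM) and BRP566 held 1 count, and the other 6 columns had 0. F1 alone held 4411 of the 6132 exonic counts, 71.9% (95% exact binomial interval 70.8 to 73.1), at 297 CPM, followed in the F block by F2 at 17.7 CPM and F11 at 1.59 CPM.

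Cntnap2, the partner of Cntn2 at the juxtaparanode, was spread over 20 columns but at very unequal levels. F2 held 409 CPM, BRP529 166 CPM, F1 154 CPM, BRP528 77.0 CPM and F6 23.7 CPM. In the BRP564 block BRP572, BRP567 and BRP571 held 22.2, 19.9 and 12.4 CPM and the remaining 5 columns were at or below 0.509 CPM. The block medians were 0.330 CPM in the BRP564 block, 0.424 CPM in the BRP528 block and 0.911 CPM in the F block. With 1 column left out these became 0.152 to 0.509, 0.400 to 0.448 and 0 to 1.82 CPM (0 without F1, 1.82 without F12), so the order of the blocks rests on single columns. BRP528, BRP529, F1, F2 and F6 lay above every column of the BRP564 block. Cntn2 and Cntnap2 each reached 5 counts in 15 columns, and 9 columns had both, 6 of the BRP528 block and 3 of the F block. With each gene in 15 of all 28 columns, shared columns arise without any link between the genes. Whether 9 is more than that was not tested.

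Cntn3, a contactin whose role is less well known, was nearly confined to the BRP528 and F blocks. In the BRP528 block it had counts in 10 of 12 columns, with a median of 4.02 CPM (1.10 to 6.94 CPM with 1 column left out). The 5 highest columns were BRP541 at 140 CPM, BRP538 at 91.7 CPM, BRP537 at 51.1 CPM, BRP543 at 46.3 CPM and BRP540 at 19.9 CPM. The block was wide, since BRP528, BRP529, BRP534, BRP535 and BRP542 were each at or below 0.235 CPM. F2 held 684 CPM (3789 counts) and the other 7 F columns held 4 counts together, no more than 2 in any. The BRP564 block held 3 counts in all.

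Cntn4, a contactin known from axon targeting in the visual and olfactory systems, was an exonic signal of a single column. BRP528 held 3989 of its 4005 exonic counts, 99.6% (interval 99.4 to 99.8), at 199 CPM. The other counts were 8 in F24, 5 in F2 and 3 in BRP570, and the other 11 columns of the BRP528 block were at 0. The same column had the highest Cntnap1 level, a Cntnap4 level of 56.0 CPM and the highest summed GABAergic marker level of the BRP columns (3110 CPM), together with a summed glutamatergic level of 0.0498 CPM, a summed oligodendrocyte level of 610 CPM and a summed astrocyte level of 1786 CPM. Their part in the Cntn4 level was not tested.

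Cntn5, a contactin of the auditory system and other sensory pathways, showed the same kind of pattern in another column. F6 held 15478 of 17530 exonic counts, 88.3% (interval 87.8 to 88.8), at 1285 CPM. BRP539 followed at 43.4 CPM, BRP541 at 33.0 CPM, F2 at 26.7 CPM and BRP536 at 10.5 CPM, and all other columns were below 1 CPM. The BRP564 block held 1 count.

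Cntn6, which acts in motor and cerebellar circuits, had the lowest mean of the members over all columns, 0.324 CPM per kb, with Cntn4 lower without BRP528 (0.0211 CPM per kb). BRP541 held 729 of 1040 exonic counts (70.1%, interval 67.2 to 72.9) at 41.5 CPM, and BRP535 held 271 counts at 12.7 CPM. F24, the only F column with any, held 6 counts at 2.84 CPM, and BRP540 held 26 counts at 1.49 CPM. All 8 columns of the BRP564 block were at 0, which allows at most 0.152 to 0.231 CPM per column.

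Cntnap4, the interneuron synapse member, had 5649 of its 7640 exonic counts in F1, 73.9% (interval 72.9 to 74.9), at 381 CPM. F2 held 60.5 CPM, BRP528 56.0 CPM, BRP540 14.9 CPM, BRP539 5.16 CPM and BRP542 3.31 CPM. F11 held 7 counts (1.59 CPM), and the other 5 F columns, F6 among them, held 0. F6 had a summed GABAergic marker level of 10461 CPM, close to the 11886 CPM of F1. In the BRP564 block only BRP567 had counts, 16 in all.

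The crowding of counts into a single column was set beside genes with similar totals. All 9 members had a larger share of their exonic counts in their top column than the median gene with exonic counts within 1.5-fold of theirs, and for 4 of them the share was above the 90th percentile. The top column's share exceeded that of 99.6% of 1954 such genes for Cntn4, 99.5% of 2411 for Cntn5, 98.3% of 2361 for Cntnap4 and 97.8% of 2285 for Cntn2. The median shares of those gene sets were 25.5%, 17.8%, 21.5% and 22.3%. For the other 5 members the position was lower, from 78.1% for Cntnap1 to 87.0% for Cntn3. Cntn4 had counts in 4 columns where the median gene of like counts had 18, and Cntn5 had counts in 11 where the median was 22, whereas Cntn1 had 26 against 26 and Cntnap1 17 against 17. The values describe these libraries, in which a few molecules can be amplified to many reads, and that part was not tested.

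**Figure D2:**
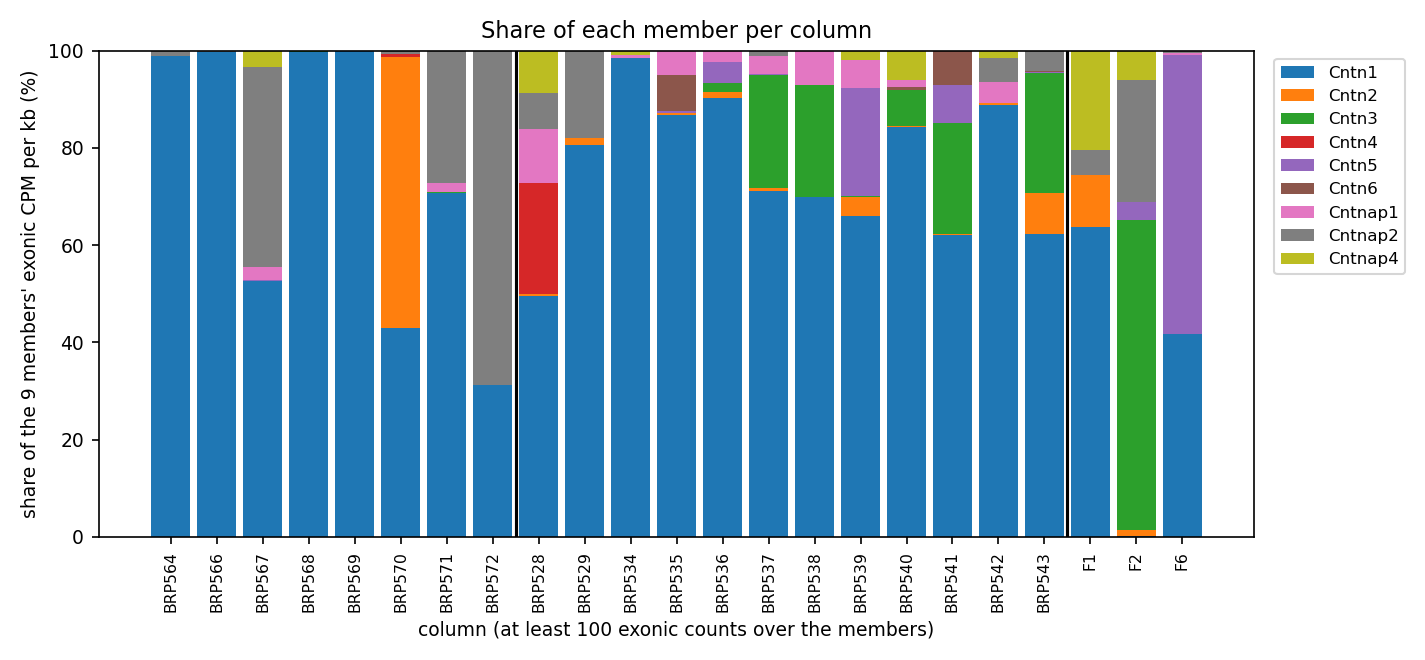
Share of each member in the summed exonic CPM per kb of the 9 members, as stacked bars for the 23 columns with at least 100 exonic member counts. Black lines part the BRP564, BRP528 and F blocks. Cntn1 makes the largest part in all 12 columns of the BRP528 block (49.5 to 98.4%), while F1, F2 and F6 are led by Cntn1, Cntn3 and Cntn5.

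Dividing by exon length allows members to be compared within a column. In the BRP528 block Cntn1 led in 12 of 12 columns, with 49.5% (BRP528) to 98.4% (BRP534) of the summed CPM per kb. The member in the next place differed: Cntn3 in 5 columns at 7.37 to 24.8%, Cntn5 in BRP539 (22.2%) and BRP536 (4.38%), Cntn4 in BRP528 (23.0%), Cntn6 in BRP535 (7.34%), Cntnap2 in BRP529 (17.9%) and BRP542 (4.83%), and Cntnap4 in BRP534 (0.860%). In the BRP564 block Cntn1 led in 6 of 8 columns, while Cntn2 led in BRP570 (55.7%) and Cntnap2 in BRP572 (68.7%), on 243 and 408 counts. The 3 F columns with at least 100 member counts had 3 different leaders: Cntn1 in F1 (63.8%), Cntn3 in F2 (63.7%) and Cntn5 in F6 (57.5%, followed by Cntn1 with 41.6%). The other 5 F columns held 0 to 58 member counts and were not ranked. Over all columns the mean exonic level per kb fell from Cntn1 (32.0) through Cntn5 (11.04), Cntn3 (5.54), Cntnap2 (3.20), Cntnap4 (2.99), Cntn2 (1.51), Cntnap1 (0.949) and Cntn4 (0.856) to Cntn6 (0.324 CPM per kb). Cntn1 was above Cntn5, the next in this order, in 20 of 20 BRP columns and 3 of 8 F columns, and its mean was still 25.6 CPM per kb without F6. Below Cntn1 the order rests on single columns. With the column that carried most of each left out, the mean fell to 0.947 for Cntn5 (without F6), 1.98 for Cntn3 and 1.84 for Cntnap2 (without F2), 0.855 for Cntnap4 and 0.383 for Cntn2 (without F1), 0.567 for Cntnap1 and 0.0211 for Cntn4 (without BRP528) and 0.0995 CPM per kb for Cntn6 (without BRP541). Column by column, Cntn5 was above Cntn3 in 7 columns and below it in 11, and Cntn3 was above and below Cntnap2 in 12 columns each.

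The intronic table gave a different picture of the family. The 9 members had 722333 intronic and 210388 exonic counts, so that 77.4% of their counts were intronic, against 19.6% over all genes. An intronic count was present in 221 of 252 combinations of member and column. Cntn1, Cntn3, Cntn4, Cntn5, Cntn6 and Cntnap2 had intronic counts in all 28 columns, Cntnap4 in 26, Cntnap1 in 17 and Cntn2 in 10. For every member but Cntnap1 and Cntn2, the median gene with intron length within 1.5-fold had intronic counts in 28 columns. For Cntnap1 and Cntn2 that median was 13 and 17 columns. Presence in all columns is therefore usual for genes with introns this long. The intronic share was 97.1% for Cntn6, 95.5% for Cntnap2, 93.8% for Cntn4, 93.1% for Cntn5, 83.9% for Cntnap4, 62.0% for Cntn3, 34.2% for Cntn1, 10.1% for Cntnap1 and 9.94% for Cntn2. The members with the shortest introns, Cntnap1 and Cntn2, thus had the lowest shares. All these shares are of counts pooled over the columns, and the order of the highest ones leans on single columns. F6 held 24986 of the 35400 intronic counts of Cntn6 and 15478 of the 17530 exonic counts of Cntn5. BRP528 held 3989 of the 4005 exonic counts of Cntn4. Without the column named for it, the share of Cntn6 would lie lower and those of Cntn5 and Cntn4 higher.

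**Figure D3:**
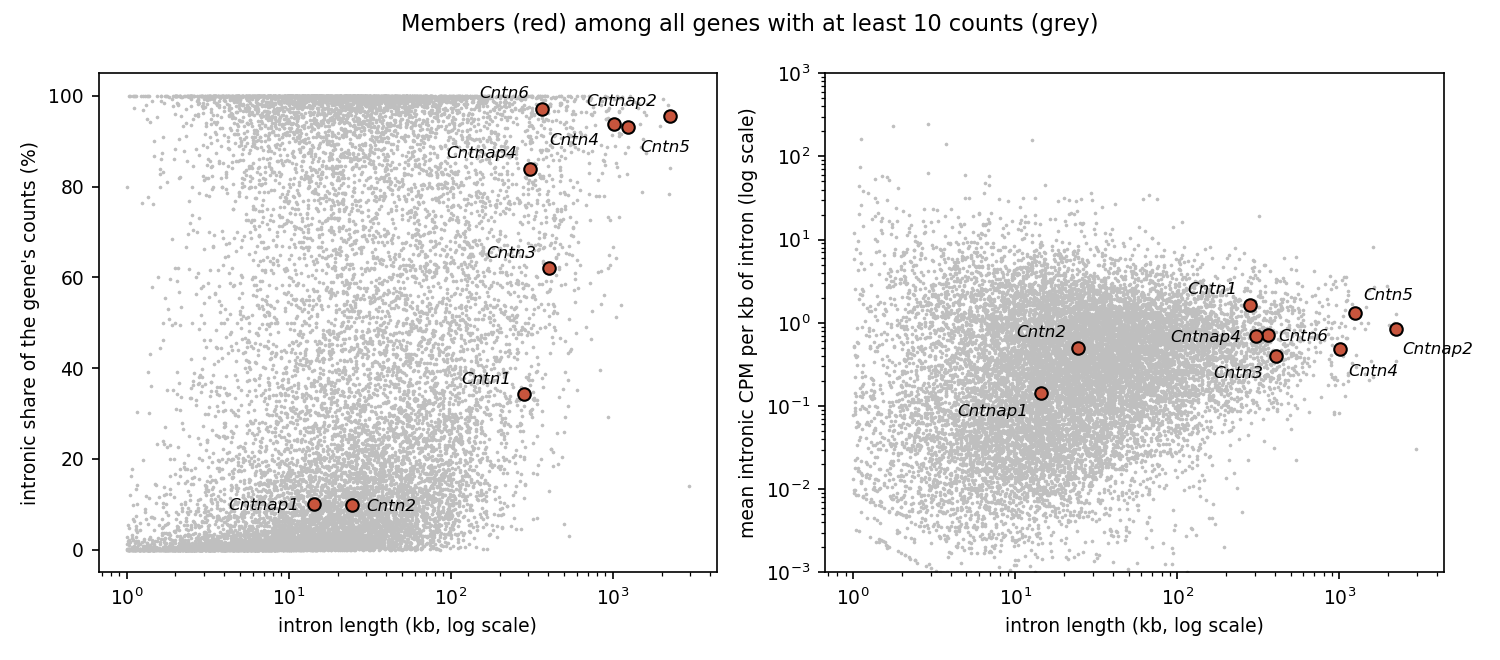
Members (red) among the genes in both tables with at least 10 counts and an annotated intron (grey, 16896 genes before those with under 1 kb of intron were left off the plot), with intron length in kb on a log scale. The left panel gives the intronic share of a gene's counts in percent and the right panel the mean intronic CPM per kb of intron on a log scale. On the left the members with long introns lie above the 16.7% median of all 16896 genes, Cntn1 lowest among them at 34.2%. Cntn1 and Cntn3 lie below the medians of genes with like intron length. On the right the members with long introns lie within the grey cloud.

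Set beside genes of like intron length, most members lay near the middle in intronic density. The mean intronic CPM (counts per 1000000 intronic counts of the column) per kb of intron was 0.832 for Cntnap2, higher than 42.9% of 14 genes with intron length within 1.5-fold, 0.483 for Cntn4 (34.0% of 100 genes) and 0.404 for Cntn3 (40.0% of 475 genes). Cntn6 reached 0.719 (62.1% of 525 genes), Cntnap4 0.695 (61.9% of 632 genes) and Cntn5 1.33 (71.4% of 77 genes). Cntn1 had 1.65 (88.6% of 699 genes). Cntn2 had 0.501 (63.9% of 3794 genes) and Cntnap1 had 0.141 (45.4% of 3690 genes). Several of these means rest on 1 column. Without F6, Cntn1 had 1.05 (76.7% of the same genes), below the 1.24 of Cntn5, and Cntn6 had 0.376 (41.1%), below the median of its length class. Without F2, Cntnap4 had 0.441 (45.6%). The mean of Cntn2 fell furthest, to 0.018 (13.2%) without BRP541. Without BRP542, Cntnap1 had 0.0648 (34.3%). Genes with at least 100 kb of intron had a median intronic share of 58.4% (2152 genes), against 16.7% over 16896 genes. Beside the medians of their own length classes, the shares of Cntn4 (93.8 against 89.0%), Cntn5 (93.1 against 91.4%) and Cntnap2 (95.5 against 89.6%) were close, Cntn6 (97.1 against 70.1%) and Cntnap4 (83.9 against 64.8%) lay above, and Cntn1 (34.2 against 62.4%) and Cntn3 (62.0 against 73.6%) lay below. For Cntn4 and Cntn5 the closeness leans on 1 column each. BRP528 held 3989 of 4005 exonic counts of Cntn4, and F6 held 15478 of 17530 of Cntn5. Without that column each share would lie higher.

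**Figure D4:**
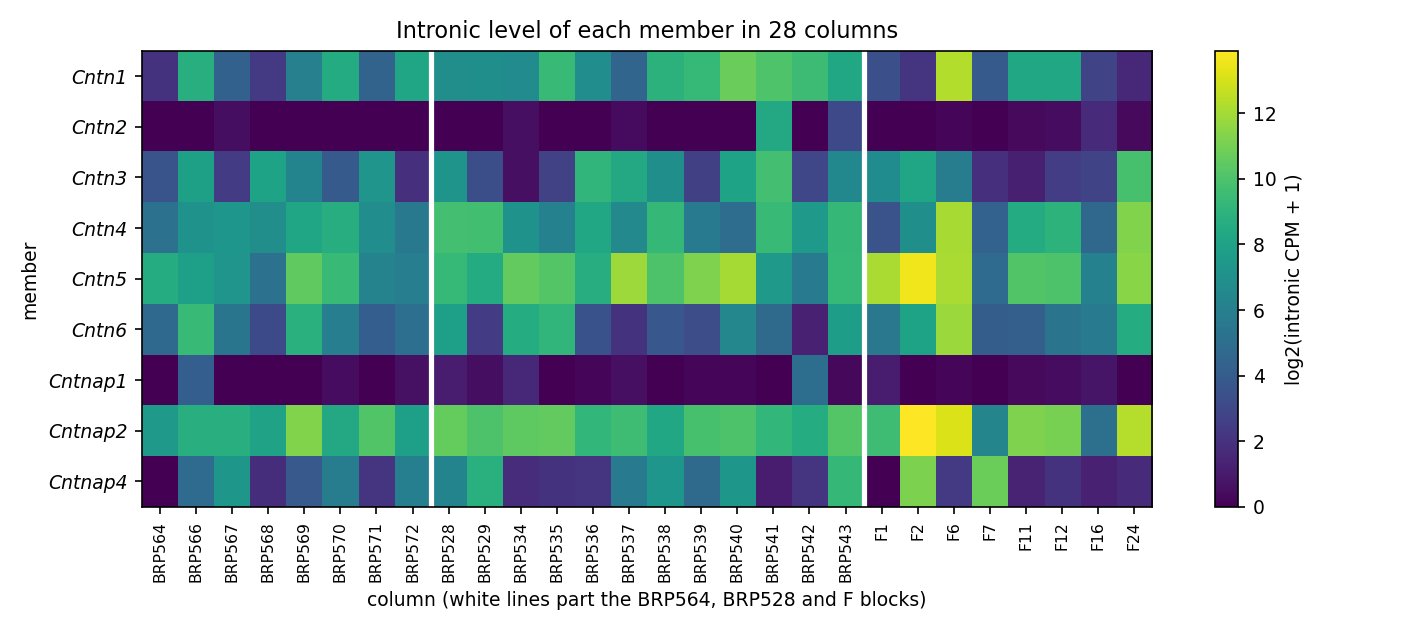
Intronic level of each member as log2(intronic CPM + 1), by colour, with members in rows and the 28 columns along the x axis. Cntnap2 and Cntn5 have signal in every column, whereas Cntn2 and Cntnap1 are at or below 2.11 intronic CPM outside BRP541, BRP543, BRP542 and BRP566.

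Intronic and exonic counts of a member often lay in different columns. Cntn4 had intronic but no exonic counts in 24 columns, Cntn6 in 20, Cntn5 in 17, Cntnap4 in 16 and Cntn3 in 12. F7 held 18444 Cntnap4 intronic counts, 46.2% of that gene's intronic counts, and 0 exonic counts. F6 held 29996 intronic counts of Cntn4 and 24986 of Cntn6 with 0 exonic counts of either, while its Cntn5 had 31061 intronic and 15478 exonic counts. F2 held 77021 intronic and 148 exonic counts of Cntn5, and 93876 intronic and 2264 exonic counts of Cntnap2. F1 was the reverse, with 8 intronic and 26479 exonic Cntn1 counts, and it had the lowest intronic share of all 28 columns (5.31% of its counts, against 36.3 to 63.0% in the other F columns). Cntn2 had 636 of its 677 intronic counts in BRP541, which held 36 exonic counts, and Cntnap1 had 310 of 357 in BRP542. Across the 28 columns the exonic and intronic levels of a gene gave Spearman's rho of 0.62 for Cntn3, 0.46 for Cntn1, 0.38 for Cntn5, 0.35 for Cntn4, 0.18 for Cntn6, 0.17 for Cntnap2, 0.14 for Cntnap4, 0.03 for Cntn2 and -0.05 for Cntnap1. These are descriptions over columns that share library type and depth within blocks.

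The block order of the median intronic level differed between members. In the BRP564, BRP528 and F blocks Cntn5 had medians of 192, 841 and 1959 intronic CPM (F block 1131 without F1 and 2787 without F12) and Cntnap2 had 377, 968 and 2255, both highest in the F block. Cntn1 had 43.7, 395 and 11.8 (BRP564 block 20.7 to 66.8 with 1 column left out), Cntn3 45.5, 105 and 31.1 (BRP564 block 14.1 to 76.8 and F block 6.34 to 55.8), and Cntnap4 21.1, 39.5 and 2.69 (BRP564 block 14.02 to 28.3), all lowest in the F block with every column in. Cntn6 had 37.0, 19.8 and 49.9 (BRP528 block 12.9 to 26.7), and Cntn4 129, 245 and 249 (F block 121 to 377). For Cntn5 and Cntnap2 the ranges overlapped all the same, since the lowest F column held 27.8 for Cntn5 (F7) and 33.8 for Cntnap2 (F16). F11 and F12 held like intronic levels of Cntnap2 (2411 and 2099), Cntn5 (1131 and 1037) and Cntn1 (320 and 310). Exonically the pair differed, with 35 Cntn1 counts in F11 and 0 in F12.

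Of 20 partner and junction genes listed for these proteins, 19 were in the exonic table and Epb41l3 was not listed. In the BRP528 block 16 of the 19 had at least 5 exonic counts in at least 10 of 12 columns. In the F block 14 had them in at least 4 of 8 columns and in the BRP564 block 12 had them in at least 7 of 8. These numbers were not set beside the share of all genes that meet the same limits. They therefore do not tell whether partners were detected more often than other genes. Chl1 (an L1 family adhesion protein), Aplp1 (an amyloid precursor relative), Ank3 (ankyrin-G) and Scn8a (a nodal sodium channel), 4 of 19, had every value of the BRP528 block above every value of the BRP564 block, beside 2.52% of all genes. These genes were listed with earlier results known. Median levels in the BRP564, BRP528 and F blocks were 38.03, 412 and 138 CPM for Chl1 and 0.132, 123 and 124 CPM for Ank3. The F median of Chl1 was 6.28 CPM without F1, below the BRP564 block, and ranged up to 270 CPM with another column left out, and the BRP564 median of Ank3 ranged from 0.0771 to 0.186 CPM.

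Nfasc had medians of 10.6, 45.2 and 0.939 CPM. These counts are of the whole gene and do not single out the glial form that lies at the paranode. Nrcam, its close relative, had 66.0, 188 and 1.33 CPM. At the juxtaparanode, Kcna1 had medians of 0.0272, 31.3 and 1.63 CPM (BRP564 block 0 to 0.0543 with 1 column left out), and Kcna2 had 3.55, 2.70 and 47.3 CPM. The F median of Kcna2 ranged from 4.03 CPM, without F1 or without F12, to 90.6 CPM with 1 column left out. Ptprz1, a receptor phosphatase that binds Cntn1 and is typical of glia, had a median of 815 CPM in the BRP564 block, 24.8 CPM in the BRP528 block and 4.61 CPM in the F block (3.07 to 6.14 with 1 column left out). Its range in the BRP528 block went up to 1176 CPM, so blocks overlapped. Ptprg, the receptor phosphatase bound by Cntn3 to Cntn6, had medians of 107, 220 and 0.148 CPM (F block 0.0674 to 0.228). App, the amyloid precursor, had medians of 495, 1764 and 307 CPM. Notch1, a receptor to which Cntn1 and Cntn6 can bind, had medians of 39.2 and 1.29 CPM in the BRP blocks (BRP528 block 0.249 to 2.34) and 0 counts in all 8 F columns.

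The 4 family genes that are no members were almost purely intronic. Cntnap3 had 124 exonic counts, 114 of them in F2, and 98.3% of its counts were intronic. Cntnap5a had 300 exonic counts, 272 of them in BRP543 (99.6% intronic), and Cntnap5b had 12 (99.97% intronic). Cntnap5c had 1007, of which F16 held 760 (907 CPM) and F24 held 209 (98.8 CPM), and 96.4% of its counts were intronic. F16 had 1 exonic count over the 9 members, and in the intronic table it held 1892 CPM of Cntnap5c, 1278 CPM of Cntnap5b and 782 CPM of Cntnap5a.

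Genes with the most similar exonic pattern were looked up for the 5 members with a count in at least 14 columns, among 10192 genes, by Spearman's rho over 28 columns. The highest of so many values are raised by the choice itself. How high unrelated genes would reach was not tested, which matters most for the lowest top values, those of Cntn2 and Cntnap2. Chd3 (0.92) and Ccl27a (0.87) were among the genes most like Cntn1. Within the 12 columns of the BRP528 block these fell to 0.41 and -0.12, so the likeness lies mostly in the differences between blocks. Cntn3 was most like Gpr22 (0.76), Lrrtm3 (0.75) and Fosb (0.74), with 0.43, 0.52 and 0.57 inside the block. Cntnap1 was most like Aatk (0.79), Hivep2 (0.77) and Omg (0.77), with 0.66, 0.47 and 0.43 inside the block. Cntn2 was most like Atp5h (0.69), Clstn2 (0.68) and Ndufb8 (0.67), which came to 0.56, 0.077 and 0.15 inside the block. Cntnap2 was most like Sema5a (0.67), Polr2j (0.66) and Fam168a (0.66), with 0.52, 0.74 and 0.38 inside the block. Pearson's r on log2(CPM + 1) named 2 of the same 3 genes for Cntn3, 1 for Cntnap2 and 0 for Cntn2 and Cntnap1. Among the members themselves the most similar pair over 28 columns was Cntn3 and Cntn6 (rho = 0.59, and 0.46 within the BRP528 block). Within that block Cntn2 and Cntn5 at 0.50, Cntn4 and Cntnap4 at 0.50 and Cntn4 and Cntnap1 at 0.48 stood higher. Cntn4 had counts in 1 of 12 columns there. Its values only restate that BRP528 ranked highest in the block for Cntnap4 and Cntnap1. Cntn3 and Cntn6 both had at least 5 counts in 4 columns, namely BRP535, BRP540, BRP541 and BRP543. Of these, BRP541 had the highest Cntn6 level of all columns and the highest BRP level of Cntn3.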

How the data were processed

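Single-cell RNA-seq of 28 mouse cells was analysed from 2 deposited tables of counts, for exons and for introns. The authors' counts are whole numbers and were not normalized. The submitters' processing notes name bcl2fastq 2.17, STAR 2.4.0 and mm10, without a role. The counting tool, the gene annotation and the strand setting are not given in the sources used here. All 28 columns were used and 0 were matched to a sample label, so no groups were tested against each other. Dixon's gap criterion (critical value 0.526 for 8 columns) was applied within blocks on log2(CPM + 1). Members, partner list, marker lists and column blocks were chosen with earlier results of these data known. Levels are counts per 1000000 of the exonic or intronic total of the column (838343 to 26770944 exonic counts), and a pseudocount of 1 was added before log2. The named genes are the members, the 4 other family genes, the partner list and, for members with a count in at least 14 columns, the 3 genes (at least 1000 counts) with the highest Spearman's rho, of which 1 is not reported here. Lengths came from GENCODE M21, matched by symbol for 93.0% of the genes of each table, and promoter sequences from RefSeq. Non-overlap counts covered genes with at least 10 exonic (or intronic) counts. The calculation was tested on simulated data. Alternatives were edgeR 4.0.16 TMM factors, DESeq2 1.42.0 size factors (R 4.3.3), added intronic counts, other totals, count minimums, thinning to 838343 counts, each column left out and, chosen after the data were seen, F11 and F12 counted once. Calculations ran in Python 3.11.15 (scipy 1.17.1, pandas 2.3.3).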

Additional observations from a re-analysis of the deposited data

Results flagged for a closer look

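In each member, table and 8-column block, the gap between the highest or lowest column and its nearest neighbour was divided by the range of the block on the log2(CPM + 1) scale. Of 35 such groups (1 more had equal values throughout), 12 had a highest column that stood apart at a level that chance gives in about 1 group in 20. In 10 of the 12 fewer than 5 columns had a count, and in 5 a single column had one, where any count stands apart by construction.

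Cntn1 in BRP566 had an exonic level of 164.124 CPM where the other 7 columns of the BRP564 block held 9.29 to 29.7 CPM, and its intronic level of 417 CPM was close to the 370 of BRP570. In the F block, Cntn3 in F2 had 684.443 exonic CPM against at most 0.945 CPM in the other columns, and Cntn5 in F6 had 1285.16 against at most 26.7 CPM. Cntn2 in BRP570 had 12.2734 exonic CPM on 243 counts, against at most 0.0637 CPM in the rest of its block. Cntnap1 in BRP566 had 16.6634 intronic CPM on 23 counts, against at most 0.522. Cntnap4 in BRP567 had 0.987935 exonic CPM on 16 counts, with 0 in the other columns of the block.

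The remaining values rest on 8 counts or fewer. In the F block these were Cntn4 in F24 at 3.78008 and Cntn6 in F24 at 2.83506 exonic CPM, and Cntn2 in F16 at 2.1145 intronic CPM, which rests on 3 counts and equals the floor of that column. Those of the BRP564 block were Cntn4 in BRP570 at 0.151524 and Cntn5 in BRP567 at 0.061746 exonic CPM, and Cntn2 in BRP567 at 0.414152 intronic CPM.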

How the results depend on the processing

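No column is a labelled replicate, and the spread over columns is so wide, above all in the F block, that staying within it says nothing about stability. The combinations of member and column with a count rose from 131 to 240 with exonic or intronic counts. The members' intronic share of 77.4% was 75.0% as the median over columns with at least 20 counts, 67.0% in the BRP columns alone and 84.7% in the F columns alone. Members lying apart with the BRP528 block above the BRP564 block came to 1 with TMM factors, beside 2.82% of all genes, and 1 with DESeq2 size factors, beside 3.05%. The F block median of Cntn1, 2.13 CPM, became 3.32 CPM with TMM factors, 9.54 CPM with DESeq2 size factors, 0.989 CPM per exonic plus intronic total, 78.7 CPM with intronic counts added and 0.473 to 3.79 CPM with 1 column left out. Its median in the BRP564 block, 23.3 CPM, became 15.2 CPM with TMM factors. The cause was not tested. No paired analysis was possible because the columns carry no replicate number of a label and no groups were tested. The F columns' floors of up to 3.58 CPM limit what could be seen in them.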
